A study of Mus musculus with 6 samples.

Results

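The Shank, Homer and SAPAP genes encode the scaffold layer of the postsynaptic density, and their 10 members were followed here in mouse prefrontal cortex. They were chosen by symbol, as the rows Shank1, Shank2, Shank3, Homer1, Homer2, Homer3, Dlgap1, Dlgap2, Dlgap3 and Dlgap4 of a count table of 54429 rows, where Dlgap is the gene name of the SAPAP proteins. All 10 passed the filter on low counts. Bulk lysates of prefrontal cortex gave 6 libraries of total RNA depleted of ribosomal RNA. In 3 of them the animals had received AAV9, an adeno-associated virus, with green fluorescent protein (GFP), and in the other 3 AAV9 with a short hairpin RNA (shRNA) against Kmt5b, a histone H4 lysine methyltransferase gene linked to autism. Mice were 6 to 8 weeks old. The labels give C57BL6/J for every library, whereas the design text gives a cross of C57BL/6 with C3H. Since the design text counts 2 GFP mice and 3 knockdown mice, some GFP libraries may share an animal. The extraction protocol speaks of duplicates in each group, which leaves the same doubt for the Kmt5b shRNA libraries, and the p-values cover only variation among libraries. The control virus carried GFP, and the labels name no control hairpin, injection coordinates or cell type that takes up the virus.

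The 3 families form a chain. SAPAP proteins bind the Dlg proteins, which hold glutamate receptors at the membrane, and the end of a SAPAP protein binds the PDZ domain of a Shank protein. Shank proteins in turn bind Homer proteins, and Homer proteins join metabotropic glutamate receptors and calcium release channels to this lattice. Shank3 is a gene of Phelan-McDermid syndrome and autism, and Homer1 also gives a short form, induced by neuronal activity, that lacks the domain for self-assembly. The comparison asked whether the paralogs of these families differed between Kmt5b shRNA and GFP libraries, and whether they did so by the same amount.

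Total counts ranged from 29490771 to 74723284 per library, and GFP replicate 2 was the shallowest. Kmt5b itself lay at 86.5, 79.7 and 80.9 CPM (read counts relative to library size after TMM scaling) with GFP and at 68.5, 80.3 and 63.9 CPM with Kmt5b shRNA. Its log2 fold change was -0.22 ± 0.10 (SE) with an edgeR adjusted p of 0.303, and the library labelled Kmt5b shRNA replicate 2 lay inside the GFP range, so all directions given here follow the labels and not a measured loss of Kmt5b. The cortical excitatory markers were present, with Slc17a7 between 859.0 and 1109 CPM and the deep-layer factor Tbr1 between 63.9 and 83.0 CPM. Of the striatal markers, the receptor gene Drd2 was lowest, with a mean of 1.05 CPM over the 6 libraries, while Drd1 lay between 16.8 and 33.4 CPM and Ppp1r1b between 20.3 and 34.5 CPM.

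The column headers of the count files carry S numbers, 13, 1 and 2 for the GFP libraries and 10, 11 and 12 for the Kmt5b shRNA libraries, and the labels do not say what these numbers mark. If they mark separate handling, GFP replicates 2 and 3 would differ from the rest by it, and this cannot be told apart from the group for those libraries. GFP replicate 1, whose number lies next to those of the Kmt5b shRNA libraries, was below all of them for Shank2, Shank3 and Dlgap3. It was also the highest GFP library for each of these genes, at 149.5, 93.8 and 182.7 CPM. For Homer1 it lay inside the Kmt5b shRNA range, at 513.5 CPM. The part of handling in these values was not tested.

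Shank2, Shank3 and Dlgap3 were higher in the Kmt5b shRNA libraries, and no member was lower, also by DESeq2 or at an unadjusted p under 0.05. These 3 of 10 stand beside 2.77% of all 24419 genes called higher (edgeR quasi-likelihood test, Benjamini-Hochberg adjusted p under 0.05) and 5.69% called lower. The median log2 fold change of the 10 members was 0.27, against -0.02 over all genes tested, and 8 of 10 members were above 0. Every Kmt5b shRNA library lay above every GFP library for 4 members, Shank2, Shank3, Dlgap3 and Dlgap4, beside 9.84% of all genes, and below for Homer3 alone, beside 12.7% of all genes. Rows that share sequence with a copy are uncertain in such counts, so a fit restricted to protein-coding genes without shared sequence was added, which keeps every member but Homer3. In that restricted fit 2 of 9 members were called higher, Shank2 and Shank3, beside 0.876% of 12335 genes, and 0 of 9 lower, beside 0.43%. In bulk tissue, fewer cells of a type and less RNA per cell cannot be told apart.

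**Figure D1:**
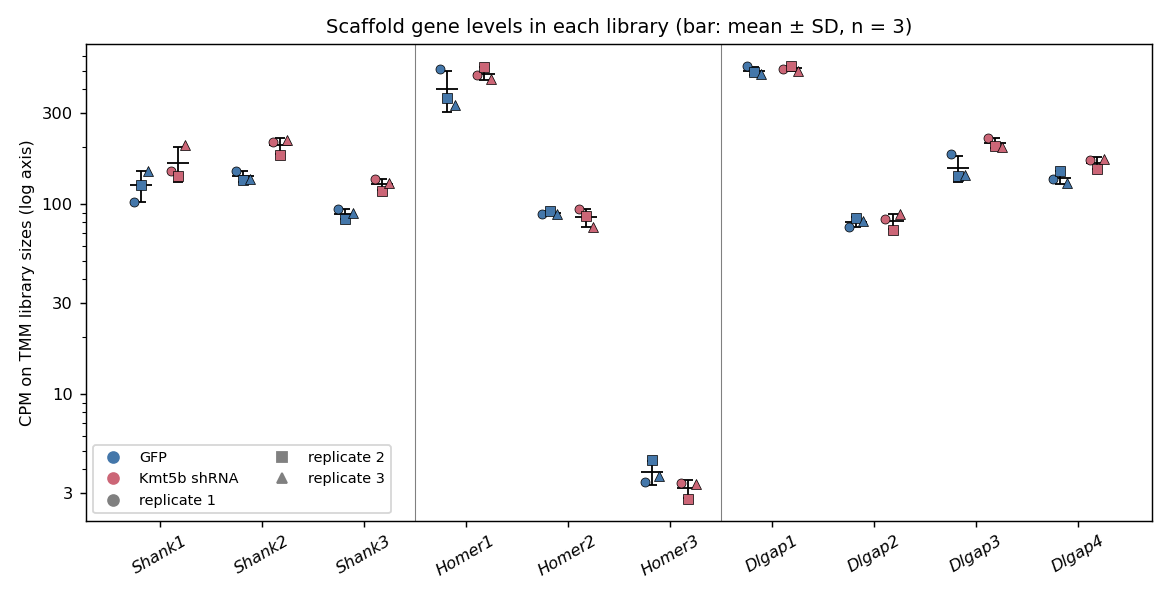
Level of each scaffold gene in CPM (log axis) in the 3 GFP libraries (blue) and the 3 Kmt5b shRNA libraries (red), with marker shape giving the replicate and bars the mean ± SD. The red points of Shank2, Shank3, Dlgap3 and Dlgap4 all lie above the blue points, while those of Dlgap1, Dlgap2 and Homer2 overlap them.

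Sequences before the start sites are shown for both called members that have a window in the RefSeq promoter table (GRCm38.p6), Shank3 and Dlgap3, and for the 2 most abundant members that were not called, Dlgap1 and Homer1. Windows were found for 7 of the 10 members, and where a gene has several, that of the start site nearest its 5′ end is shown. Each sequence is the 250 bases before the start site, on the gene's strand and read 5′ to 3′, and capitals mark the GC box, the binding motif of Sp family factors. The Shank3 window is chr15:89499358-89499607, the Dlgap3 window chr4:127172630-127172879, the Dlgap1 window chr17:69968823-69969072 and the Homer1 window chr13:93303507-93303756, all on the plus strand and none overlapping an annotated exon. The Dlgap3 and Homer1 windows lie inside the annotated span of their gene, before an inner start site.
Shank3: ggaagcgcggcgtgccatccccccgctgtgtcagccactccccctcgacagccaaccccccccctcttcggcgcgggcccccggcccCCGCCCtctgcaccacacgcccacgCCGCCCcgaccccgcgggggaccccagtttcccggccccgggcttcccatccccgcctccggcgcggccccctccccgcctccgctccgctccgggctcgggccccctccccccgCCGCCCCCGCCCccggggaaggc
Dlgap3: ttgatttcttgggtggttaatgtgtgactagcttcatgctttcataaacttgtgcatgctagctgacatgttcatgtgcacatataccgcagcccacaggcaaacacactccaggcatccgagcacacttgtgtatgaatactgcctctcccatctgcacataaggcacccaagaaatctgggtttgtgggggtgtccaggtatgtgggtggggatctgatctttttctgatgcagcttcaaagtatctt
Dlgap1: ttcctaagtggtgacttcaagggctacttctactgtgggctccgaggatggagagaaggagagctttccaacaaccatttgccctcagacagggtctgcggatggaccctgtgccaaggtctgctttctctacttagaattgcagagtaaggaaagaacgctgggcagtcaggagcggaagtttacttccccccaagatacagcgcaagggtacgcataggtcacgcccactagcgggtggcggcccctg
Homer1: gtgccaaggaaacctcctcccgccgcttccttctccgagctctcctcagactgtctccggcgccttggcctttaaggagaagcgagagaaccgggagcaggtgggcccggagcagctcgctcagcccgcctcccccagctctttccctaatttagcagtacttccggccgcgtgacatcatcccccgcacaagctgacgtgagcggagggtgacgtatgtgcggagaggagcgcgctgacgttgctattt
The GC box (GGGCGG, either strand) was found 4 times in the Shank3 window and not in the other 3, and 32.7% of 32851 windows in the table held it. Windows of uncalled members that are not shown also held it. It was found 8 times for Homer2 (window nearest the 5′ end), 4 times for Homer3 and 2 times for Dlgap4. The cyclic AMP response element (TGACGTCA, in 1.55% of windows) and the palindromic NRF1 motif (in 0.782%) were in none of the 4 windows shown. The Shank3 window was 82.4% G and C with 31 CpG sites, and the Dlgap3 window 46.8% with 2 CpG sites, against medians of 52.4% and 6 CpG sites over all windows. The called members with a window thus had start regions of very different base composition, and a missing motif says only that these letters are not in this window.

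Shank2 and Shank3 rose by similar amounts, and Shank1, whose groups overlapped, was not called. The Shank proteins are the large master scaffolds that sit under the SAPAP layer. Shank3, on chromosome 15 from 89499623 to 89560261 (mm10), lay at 93.8, 83.5 and 89.2 CPM with GFP and at 134.4, 117.5 and 129.3 CPM with Kmt5b shRNA. The groups did not overlap, and the lowest Kmt5b shRNA library was well above the highest GFP library. This was a log2 fold change of 0.52 ± 0.10 (SE), or 43.0% more, with an edgeR adjusted p of 0.00183.

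Shank2, on chromosome 7 from 144001928 to 144424494 and spanning 422.6 kb, lay at 149.5, 132.8 and 135.8 CPM in the GFP libraries. Its Kmt5b shRNA libraries stood at 212.3, 180.8 and 217.3 CPM. Here too the groups did not overlap, with Kmt5b shRNA replicate 2 the lowest of its group, as it was for Shank3. The Shank2 log2 fold change was 0.55 ± 0.10 (SE), or 46.0% more, with an edgeR adjusted p of 0.00202. In the restricted fit, the edgeR adjusted p was 0.0210 for Shank2 and 0.0181 for Shank3. With 1 library left out of the fit of all genes, each passed in 6 of 6 fits. The edgeR adjusted p there was up to 0.0229 for Shank2 and 0.0239 for Shank3. With 1 library left out of the restricted fit, each of these genes passed in 2 of 6 fits. The adjusted p there was up to 0.135 for Shank2 and 0.121 for Shank3, both without Kmt5b shRNA replicate 1. In the restricted fit these genes did not pass without GFP replicate 2, GFP replicate 3 or Kmt5b shRNA replicate 3 either. The adjusted p in those fits lay between 0.0576 and 0.0850.

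Shank1, on chromosome 7 from 44310253 to 44360572, lay at 102.3, 125.3 and 149.2 CPM in the GFP libraries. In the Kmt5b shRNA libraries it lay at 149.3, 139.6 and 203.1 CPM. The groups overlapped, since GFP replicate 3 was above Kmt5b shRNA replicate 2, and the lowest and highest GFP libraries were further apart than the group means of 125.6 ± 23.4 and 164.0 ± 34.2 CPM (SD, n = 3 each). The Shank1 log2 fold change was 0.38 ± 0.16 (SE), with a 95% interval from 0.03 to 0.74 and an edgeR adjusted p of 0.227. It ran from 0.21 without Kmt5b shRNA replicate 3 to 0.53 without GFP replicate 3, and from 0.18 to 0.54 in the restricted fit with the same libraries left out, and passed in none of these fits. Exons of Shank1 overlap 339 bases of the opposite-strand gene 1700008O03Rik, and those of Shank3 overlap 271 bases of the opposite-strand Gm15609. The strand setting of the counting is not given in the sources used here, so reads of such overlaps cannot be assigned.

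Among the SAPAP genes, Dlgap3 was higher and Dlgap1 and Dlgap2 were nearly level. SAPAP proteins link the Dlg scaffold to Shank, and loss of Dlgap3 in mice causes compulsive grooming. Dlgap3, on chromosome 4 from 127169204 to 127237022, lay at 182.7, 139.7 and 141.7 CPM in the GFP libraries. It lay at 222.9, 202.1 and 199.9 CPM with Kmt5b shRNA. No libraries of the 2 groups overlapped, although GFP replicate 1 was nearer to the Kmt5b shRNA libraries than to the other GFP libraries. The log2 fold change was 0.43 ± 0.11 (SE), or 34.6% more, with an edgeR adjusted p of 0.0280. The call was lost in the restricted fit (log2 fold change 0.42, adjusted p = 0.0756). The unadjusted edgeR p of Dlgap3 was 0.00154 in that fit and 0.00210 in the fit of all genes. In the fit of all genes the call was lost without GFP replicate 2, GFP replicate 3 or Kmt5b shRNA replicate 1 (adjusted p = 0.116, 0.141 and 0.171). It was lost too once each library was adjusted for GC content, which gave a Dlgap3 log2 fold change of 0.24 ± 0.09 (SE) and an adjusted p of 0.176.

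Dlgap4, on chromosome 2 from 156613705 to 156764363, lay at 135.3, 149.1 and 127.996 CPM with GFP and at 170.3, 151.7 and 173.0 CPM with Kmt5b shRNA. The highest GFP library was just under the lowest Kmt5b shRNA library. Its log2 fold change of 0.26 ± 0.10 (SE) did not pass (edgeR adjusted p = 0.153). Dlgap1, on chromosome 17 from 69969073 to 70821413, is the most heavily counted SAPAP gene, with 529.0, 493.7 and 483.0 CPM with GFP and 514.6, 533.5 and 498.5 CPM with Kmt5b shRNA. Its groups overlapped, and its log2 fold change of 0.04 had a 95% interval from -0.17 to 0.25 (edgeR adjusted p = 0.911). Dlgap2, on chromosome 8 from 14095865 to 14847680, lay between 75.4 and 84.2 CPM with GFP and between 73.2 and 87.9 CPM with Kmt5b shRNA. Its interval ran from -0.19 to 0.23 around a log2 fold change of 0.02, so a change as large as that of Shank2 or Shank3 lay outside the intervals of Dlgap1 and Dlgap2.

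**Figure D2:**
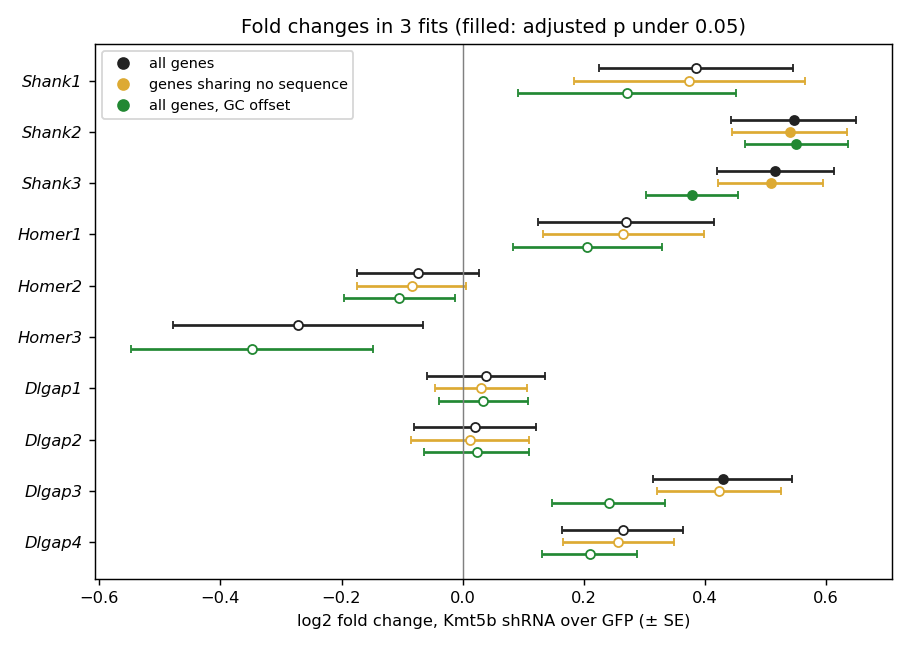
Log2 fold change of Kmt5b shRNA over GFP with its SE for each member in the fit of all genes (black), of protein-coding genes without shared sequence (yellow, no Homer3) and of all genes with an offset for GC content (green). Filled points have an edgeR adjusted p under 0.05, which holds for Shank2 and Shank3 in all 3 fits and for Dlgap3 in the fit of all genes alone.

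No Homer gene was called in either direction. Homer proteins are adaptors that bind Shank, metabotropic glutamate receptors and inositol trisphosphate receptors through the same domain. Homer1, on chromosome 13 from 93299635 to 93405129, lay at 513.5, 359.5 and 333.1 CPM with GFP and at 478.4, 524.8 and 451.5 CPM with Kmt5b shRNA. GFP replicate 1 stood among the Kmt5b shRNA libraries and the other GFP libraries stood below all of them. The Homer1 log2 fold change was 0.27 ± 0.15 (SE), with an edgeR adjusted p of 0.388. Without GFP replicate 1 it was 0.49 ± 0.11 (SE), with an adjusted p of 0.00656. The row for Homer1 counts its 12 annotated transcripts together, so the short form cannot be told apart from the long forms here.

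Homer2, on chromosome 7 from 81600481 to 81707527, was the steadiest member among the GFP libraries, at 87.9, 91.9 and 88.9 CPM. It lay at 93.5, 86.5 and 75.2 CPM with Kmt5b shRNA, which reached above and below the GFP range. Its log2 fold change was -0.07, with a 95% interval from -0.29 to 0.14 (edgeR adjusted p = 0.806). Homer3, on chromosome 8 from 70282827 to 70294361, is best known from cerebellar Purkinje cells and had few counts here, from 130 to 289 per library. It lay at 3.42, 4.49 and 3.69 CPM with GFP and at 3.41, 2.80 and 3.35 CPM with Kmt5b shRNA. Kmt5b shRNA replicate 1 and GFP replicate 1 were almost equal, although every Kmt5b shRNA library was the lower, and the log2 fold change was -0.27 ± 0.21 (SE) with an edgeR adjusted p of 0.598. Exons of Homer3 overlap 874 bases of the opposite-strand gene Ddx49, which makes its value uncertain. Smaller opposite-strand overlaps of exons exist for Homer2 with Gm44570 (525 bases), Dlgap1 with AC079441.1 (92 bases) and Dlgap4 with 4930405A21Rik (24 bases).

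Because library scaling cancels in a ratio within a library, the paralogs were compared directly by their log2 ratio, in 12 pairs within families. Shank2 and Shank3 kept nearly the same proportion throughout. Their log2 ratio was 0.67, 0.67 and 0.61 with GFP and 0.66, 0.62 and 0.75 with Kmt5b shRNA, a difference between group means of 0.03 with a pooled SD of 0.05. Shank1 varied against both, from -0.55 to 0.14 relative to Shank2 in the GFP libraries alone, which covers the whole range of the Kmt5b shRNA libraries.

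Of the 12 pairs, 2 had ratios that did not overlap between groups, both in the SAPAP family, which supplies the most pairs. For single genes, 9.84% of all lay wholly above the GFP libraries and 12.7% wholly below. No such share was computed for ratios of other genes. Dlgap1 over Dlgap3 had log2 ratios of 1.53, 1.82 and 1.77 with GFP and 1.21, 1.40 and 1.32 with Kmt5b shRNA. Dlgap1 counts were thus 3.27 times those of Dlgap3 in the GFP group and 2.48 times in the Kmt5b shRNA group. Dlgap2 over Dlgap4 had log2 ratios of -0.84, -0.82 and -0.65 with GFP against -1.04, -1.05 and -0.98 in the Kmt5b shRNA libraries. The differences between group means were -0.40 and -0.25, each about 3.12 pooled SDs. For Homer1 over Homer2 the difference was 0.37 with a pooled SD of 0.27, and GFP replicate 1, at 2.55, lay among the Kmt5b shRNA libraries. Each of the 2 separated pairs had the smallest two-sided exact permutation p that 3 against 3 libraries allow, 0.1, and adjusted over the 12 pairs it was 0.48, so this design could not call any pair.

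**Figure D3:**
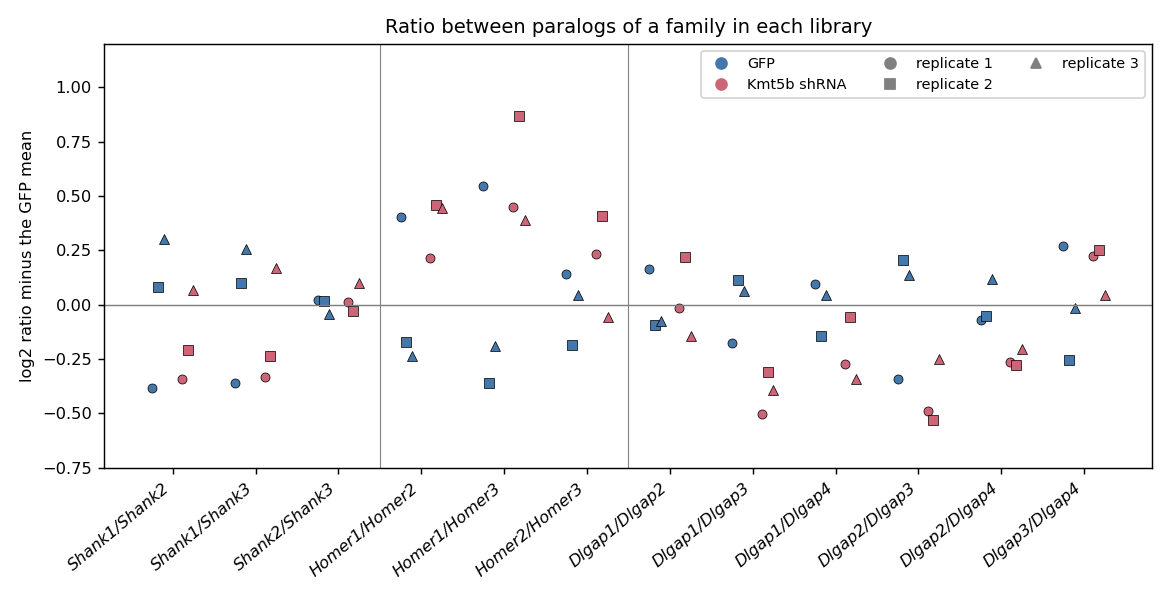
Log2 ratio of CPM between paralogs in each library, less the mean of the GFP libraries, for the 12 pairs within families (blue GFP, red Kmt5b shRNA, shape giving the replicate). The red points of Dlgap1/Dlgap3 and Dlgap2/Dlgap4 lie below all blue points, and the points of Shank2/Shank3 lie close together in both groups.

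Levels were compared between genes per kilobase of merged exon, which is needed because the exon length of the members runs from 3.44 kb for Homer3 to 17.9 kb for Dlgap1. In the GFP libraries Dlgap3 was at 34.2 ± 5.36, Homer1 at 33.6 ± 8.14 and Dlgap1 at 28.1 ± 1.35 CPM per kb (SD, n = 3), with neighbouring ranges overlapping. Dlgap4 followed at 16.3 ± 1.27, and then Dlgap2 at 13.1 ± 0.731, Shank2 at 12.9 ± 0.830, Shank1 at 11.9 ± 2.23 and Shank3 at 9.67 ± 0.561 CPM per kb. From Dlgap2 to Shank3 each range overlapped that of its neighbour, while Dlgap4 stood clear on both sides. Homer2 at 7.10 ± 0.164 and Homer3 at 1.12 ± 0.161 CPM per kb were lowest, and stood clear of their neighbours.

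In the Kmt5b shRNA libraries the top of the order was separated, with Dlgap3 at 46.1 ± 2.80, Homer1 at 40.5 ± 3.09 and Dlgap1 at 28.8 ± 0.981 CPM per kb. Dlgap2, at 13.2 ± 1.22 CPM per kb, ranked behind all 3 Shank genes by this length. Their means were 18.9 ± 1.84 for Shank2, 15.6 ± 3.25 for Shank1 and 13.8 ± 0.943 CPM per kb for Shank3. The range of Dlgap2 overlapped those of Shank1 and Shank3. This order depends on the length used. By the longest transcript of each gene, Homer1 and Dlgap1 led in the GFP libraries with 70.4 and 70.0 CPM per kb, ahead of Dlgap3 with 36.8 CPM per kb. By that length Dlgap2, at 18.1 CPM per kb in the Kmt5b shRNA libraries, ranked ahead of Shank3 at 17.3 and Shank1 at 16.7.

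Within families, Homer1 made up 79.8 ± 3.90% of the summed Homer level per kb with GFP and 84.1 ± 1.29% with Kmt5b shRNA, with GFP replicate 1 at 84.3%. The Shank family was evenly divided, with Shank2 at 37.5 ± 3.29%, Shank1 at 34.5 ± 5.17% and Shank3 at 28.0 ± 1.91% in the GFP libraries. These shares were 39.2 ± 1.47%, 32.1 ± 3.54% and 28.7 ± 2.16% in the Kmt5b shRNA libraries, and every one of them overlapped between groups. The share of Dlgap3 among the SAPAP genes was 41.1%, 34.4% and 36.1% with GFP and 44.1%, 42.8% and 41.4% with Kmt5b shRNA, just without overlap. That of Dlgap1 was 30.1%, 30.7% and 31.1% against 25.7%, 28.6% and 26.1%, without overlap. By the longest transcript the mean shares in the GFP libraries became 24.0% for Dlgap3 and 45.8% for Dlgap1.

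**Figure D4:**
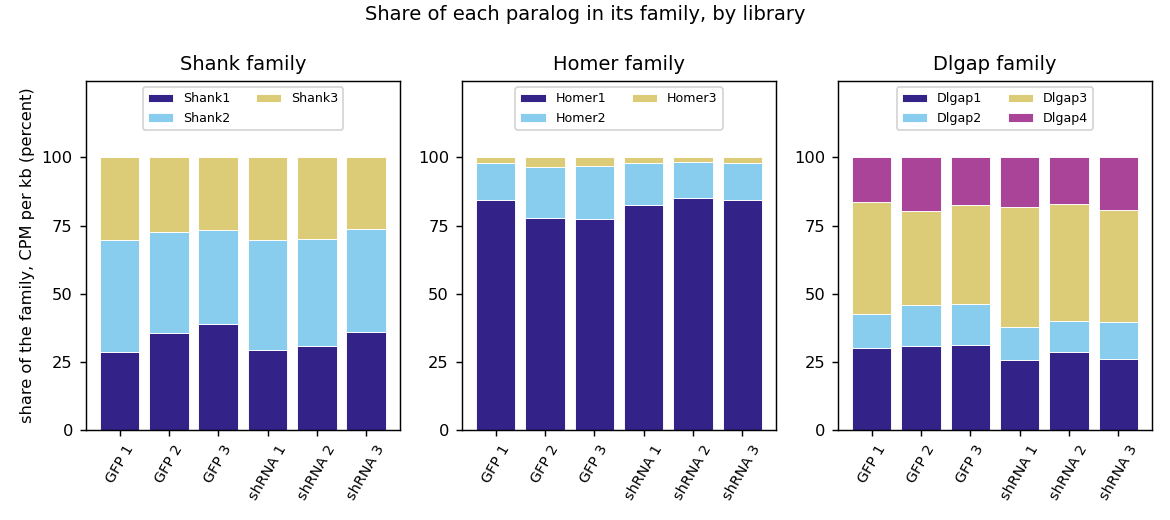
Share of each paralog in the summed level of its family (CPM per kb of merged exon, in percent) in the 6 libraries. Homer1 fills between 77.4% and 85.1% of its family, the 3 Shank genes divide theirs more evenly, and the Dlgap3 share lies between 41.4% and 44.1% in the Kmt5b shRNA libraries.

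Of 25 listed binding partners of these scaffolds, all tested, edgeR called 0 higher and 1 lower, beside 2.77% and 5.69% of all genes. These edgeR calls were near the background. In all, 19 of 25 were above 0, with a median log2 fold change of 0.08. Every Kmt5b shRNA library lay above every GFP library for 8 of the 25, beside 9.84% of all genes, and below for 2, beside 12.7%. At an unadjusted p under 0.05 the counts were 7 higher and 1 lower, without a share of all genes to set beside them. By DESeq2 they were 2 higher, Agap2 and Dynll1, named after their values were seen, and 1 lower, beside 850 and 1632 of all genes. The 4 Dlg genes, the anchors of SAPAP proteins, had a median of 0.13, the 9 Homer ligands, among them Grm5 and Itpr1, a median of 0.07, and the 10 Shank ligands, among them Cttn and Baiap2, a median of 0.09. The gene named by this call is Dynll2, a dynein light chain that binds SAPAP proteins, at 237.4, 225.7 and 201.2 CPM with GFP against 183.1, 175.3 and 126.7 CPM with Kmt5b shRNA. The Dynll2 groups did not overlap and it fell by 0.45 ± 0.13 on the log2 scale (SE, edgeR adjusted p = 0.0450). It was not called in the restricted fit (-0.46, adjusted p = 0.10), where its unadjusted edgeR p was 0.00294 against 0.00371 with all genes. Nor was it called when GFP replicate 1 or 2, or Kmt5b shRNA replicate 2 or 3, was left out (adjusted p from 0.0546 to 0.190). Its log2 fold change there ran from -0.51 to -0.29, the smallest being without Kmt5b shRNA replicate 3.

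Immediate early genes were listed because neuronal activity induces the short Homer1 form. Of 12 tested, 0 were higher and 0 lower by edgeR, beside 2.77% and 5.69% of all genes. By DESeq2 1 rose and 1 fell, beside 850 and 1632 of all genes. In all, 3 of the 12 were above 0, with a median log2 fold change of -0.10. Of the 12, 2 had an unadjusted edgeR p under 0.05: Dusp1, a phosphatase gene, with a log2 fold change of -0.79 ± 0.23 (SE, adjusted p = 0.0874), and the transcription factor gene Egr4 with 0.54 ± 0.18 (SE, adjusted p = 0.0789). With the GC offset Egr4 was at 0.16 (edgeR adjusted p = 0.660), and without GFP replicate 1 Dusp1 was at -0.51. Arc, chosen after its values were seen, lay at 453.0 CPM in GFP replicate 1 and at 236.1 and 163.1 CPM in the other GFP libraries, and between 146.4 and 200.9 CPM with Kmt5b shRNA. The GFP library highest for Homer1 was thus also highest for Arc, whereas the Kmt5b shRNA library highest for Homer1, replicate 2, was lowest for Arc. The part of this in the Homer1 result was not tested.

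Base composition moved with part of these differences. In 5 bins of equal size of protein-coding genes by the GC content of the longest transcript, the median log2 fold change was 0.04 in the lowest and 0.03 in the highest, and between -0.02 and 0.00 in the others. Bins of fixed width, chosen after seeing the data, separate the ends further. In these bins the median log2 fold change was 0.11 for the 661 genes whose longest transcript is 60% to 65% G and C and 0.28 for the 75 genes above that, against -0.02 for the 4091 genes between 50% and 55%. At the low end it was 0.10 for the 42 genes at 30% to 35% and 0.05 for the 906 genes at 35% to 40%, where Homer1 lies. Dlgap3 is 63.9%, Shank3 62.4%, Shank1 61.4%, Homer3 60.2% and Dlgap4 59.4% G and C, whereas Shank2 is 55.0% and Homer1 36.9%. With an offset for GC content in each library, the log2 fold change of Shank2 stayed at 0.55 (edgeR adjusted p = 0.000859) and that of Shank3 became 0.38 ± 0.08 (SE, adjusted p = 0.00648). Under the same offset Shank1 was at 0.27 and Dlgap4 at 0.21.

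**Figure D5:**
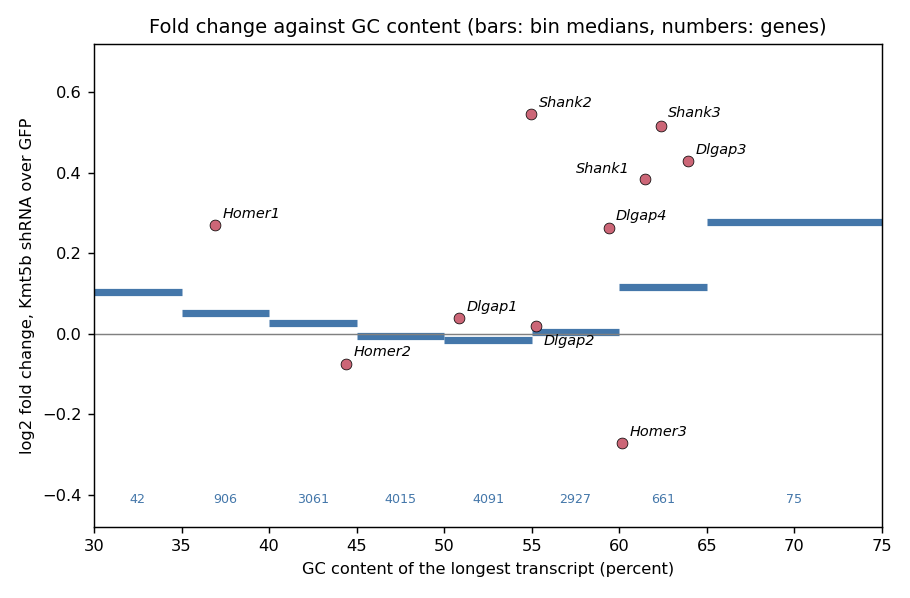
Log2 fold change of Kmt5b shRNA over GFP against the GC content of the longest transcript, with the 10 members as points and, as bars, the medians of all protein-coding genes tested in bins of GC content (numbers give genes per bin). The bar medians rise from 0.00 at 55% to 60% to 0.28 above 65%. Every member but Homer2 and Homer3 lies above the bar of its own bin.

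Cell type markers were read beside the members, and their part in these results was not tested. Of 6 pan-neuronal markers 0 were called by either tool or at an unadjusted p under 0.05, with a median log2 fold change of -0.08. Among 7 inhibitory neuron markers Pvalb alone was called, with a log2 fold change of -0.58 (edgeR adjusted p = 0.00329), while Vip and Lhx6, named after their values were seen, were at 0.27 and 0.26 and higher at an unadjusted p under 0.05. The median of this list was -0.04. Astrocyte markers had a median of -0.17, and 2 of 8, Aqp4 and Gja1, were called lower, beside 5.69% of all genes. Gfap and Sox9, named after their values were seen, were at 0.39 and 0.26 without passing. The restricted fit does not hold Gja1, and in it 1 of 7 was called lower, beside 0.43% of its genes. This was Aqp4 (edgeR adjusted p = 0.0249). The 8 markers summed to 4833 to 4986 CPM with GFP against 4148 to 4722 CPM with Kmt5b shRNA. The 8 oligodendrocyte markers had a median of -0.42 with 0 called by edgeR (1 lower by DESeq2 and at an unadjusted p under 0.05, the myelin gene Mog, chosen after its values were seen), and summed to 2771 to 4244 CPM against 1524 to 3221 CPM. Striatal markers, relevant because Shank3 and Dlgap3 are strongly expressed in striatum, summed to 137.5 to 143.1 CPM against 111.4 to 146.3 CPM, with 0 of 8 called by either tool and Ppp1r1b and Penk lower at an unadjusted p under 0.05. Of the other lists, 0 of 6 microglia, 0 of 4 endothelial and 0 of 4 oligodendrocyte precursor markers were called, by either tool or at an unadjusted p under 0.05.

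The genes whose pattern over the 6 libraries was most like the mean of the Shank genes (of standardised log2 CPM, among 10512 genes of at least moderate level) were Arpp21, Lrfn3 and Carmil3, with Pearson r of 0.997, 0.993 and 0.993. Nearest to the Dlgap mean were Lrp3, Csdc2 and Trim8, with r of 0.996, 0.992 and 0.99. For the Homer mean they were Dbndd1, Ino80e and Nol3, with r of 0.995, 0.985 and 0.971. That mean joins members that did not all move together, as r between Homer1 and Homer2 was -0.19. The Dlgap mean does so too, as r between Dlgap1 and Dlgap2 was -0.75. The log2 fold changes of Dbndd1, Ino80e and Nol3 were -0.09, -0.13 and -0.18, whereas that of Homer1 was 0.27. With 6 libraries high values are common: 358 genes had r above 0.9 with the Shank mean, 317 with the Dlgap mean and 63 with the Homer mean. Between members, Shank2 and Shank3 had an r of 0.99 and Homer1 and Homer3 one of -0.76 over the same 6 libraries, which share depth and scaling.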

How the data were processed

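Prefrontal cortex RNA was measured in 3 GFP and 3 Kmt5b shRNA libraries, grouped and numbered by sample titles. The labels' protocols state a strand-marking kit, depletion of ribosomal RNA, trimming by Cutadapt and TopHat2 alignment on RefSeq mRNAs. The submitters' processing notes instead list mm10, STAR, featureCounts and DESeq2; the strand setting is not given in the sources used here. Each deposited value is an unnormalized count of reads for a gene symbol, and 53825 of 54429 rows matched a symbol of GENCODE M21, which gave positions, exon lengths and GC content.

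All genes were fitted with edgeR 4.0.16 in R 4.3.3 (filterByExpr, TMM, robust quasi-likelihood test, legacy=TRUE). A gene was called where its Benjamini-Hochberg adjusted p over all genes tested was under 0.05. CPM are on TMM library sizes. The SE is the absolute log2 fold change over the square root of F, and 95% intervals use the total degrees of freedom of the test. The restricted fit holds protein-coding genes without a match in BLAST+ 2.17.0, at 90% identity, of 200 nucleotides or of 50% of their length to another protein-coding gene or a pseudogene. Paralog ratios were tested by exact permutation over libraries (SciPy 1.17.1). The GC offset subtracts, per library, a loess curve of log2 deviations on GC content. GC bins of fixed width were chosen after seeing the data.

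The members and the lists were chosen with earlier results of these data known. Every member is named, with the partner and immediate early genes called, up to 3 per direction, or else the 2 of smallest p, and the 3 genes most like each family. Alternatives were DESeq2 1.42.0, other scalings and filters, fits of fewer genes, offsets for GC content and exon length, the replicate number as a block, and each library left out. Libraries of the same group differed by more than counting error (chi-square per gene 33.4 to 84.6), which cannot tell whether they came from different animals. Depth sets counting error only, and among the members counts were fewest for Homer3. Protein sequences were not used here. The summary of the excitatory neuron marker list is not reported here.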

Additional observations from a re-analysis of the deposited data

How the results depend on the processing

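With 3 libraries a group, calls near the threshold moved with the libraries used. Members called higher numbered 2 to 4 with each library left out, and 0 to 4 in the restricted fit with each library left out, an alternative chosen after seeing the data. They were 0 there when Kmt5b shRNA replicate 1 or 3, or GFP replicate 2 or 3, was the library left out. No member was called lower in any alternative run. Left-out libraries put the Shank2 log2 fold change between 0.51 and 0.62, and in the restricted fit between 0.48 and 0.63 (not passing at 0.51, 0.54, 0.51 and 0.48). For Shank3 the restricted fit gave 0.47 to 0.57 (not passing at 0.47, 0.53, 0.47 and 0.49). For Dlgap3 it ran from 0.37 to 0.57, and was 0.42 in the restricted fit, 0.24 with the GC offset and 0.25 with that offset and the replicate block. Restricted and with a library left out, Dlgap3 ran from 0.36 to 0.54 (not passing at 0.36, 0.38, 0.37, 0.46 and 0.44). Homer1 ran from 0.15 to 0.49, and from 0.16 to 0.46 in the restricted fit, passing only without GFP replicate 1. Shank1 passed with no filter on low counts (0.39, edgeR adjusted p = 0.00769). Values near 0 changed sign: with a library left out Homer2 ran from -0.147 to 0.0173 and Dlgap2 from -0.0287 to 0.0915, or from -0.0545 to 0.0940 in the restricted fit (below 0 also at -0.0484 and -0.00299), and Dlgap2 was -0.00185 with the exon length offset.

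The replicate numbers were not taken to pair the samples. Deviations from the group mean correlated at -0.11, -0.20 and 0.37 for the same number over 11059 genes. For different numbers they ran from -0.45 (GFP replicate 1 with Kmt5b shRNA replicate 3) to 0.51 (GFP replicate 1 with Kmt5b shRNA replicate 2). Deviations within a group are tied to each other, so these values cannot decide whether samples were paired. With the replicate number as a block, 4 members were called, with Shank1 added (0.38, edgeR adjusted p = 0.0401). Over all genes, 471 were called higher and 184 lower among protein-coding genes alone, and 108 and 53 in the restricted fit, against 676 and 1390.

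Partner genes called higher were 1 with upper-quartile scaling, no filter, the stricter filter, the exon length offset, or the block with the GC offset, 2 with DESeq2, 0 to 2 with a library left out and 0 to 1 in the restricted fit. Partner genes called lower were 0 with RLE size factors, the test without robust fitting, protein-coding genes only or the restricted fit, and 0 to 1 with a library left out. Immediate early genes called higher were 1 with DESeq2 or no filter and 0 to 1 with a library left out. Those called lower were 1 with DESeq2, no filter, the test without robust fitting, or the block with or without the GC offset, and 0 to 2 with a library left out. The cause of these changes was not tested. Depth limits Homer3 most, with its 130 to 289 counts per library.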
